A study of Mus musculus with 11 samples.

Results

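The p53 and Arf pathway was described through 10 genes: Trp53, Cdkn2a, Mdm2, Mdm4, Cdkn1a, Ccng1, Phlda3, Trp53inp1, Sesn2 and Gadd45a. They were found by gene symbol among the 38406 genes of the count table. Each of the 10 was present, and each passed the low-count filter that left 15228 genes to be tested. Expression had been measured by 3′ mRNA sequencing of 11 libraries from fresh-frozen cerebellar tumours of CD1 mice. All 4 tumour models carried MYC, an oncogene of the most aggressive medulloblastomas, and the labels list no treatment. The constitutive MYC-Gfi1 tumours (n = 2) carried MYC with the transcriptional repressor Gfi1, and the constitutive MYC-Otx2 tumours (n = 3) carried MYC with the homeobox factor Otx2. In the S100b-cell tumours (n = 3), MYC with Gfi1 was restricted to cells positive for S100b. In the N1ICD tumours (n = 3), N1ICD, the active intracellular domain of the receptor Notch1, was added to MYC and Gfi1 and the restriction was to cells positive for Math1. N1ICD and the Math1 restriction occurred only together, so their parts in a difference cannot be told apart. The age of the animals, the delivery of the oncogenes and the number of tumours behind each group were not stated in the sources used here.

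p53, the product of Trp53, is a transcription factor that is kept low in unstressed cells by Mdm2, a ubiquitin ligase that marks it for destruction, and by Mdm4, a relative that blocks its activity. The Cdkn2a locus makes Arf, which binds Mdm2 and frees p53, and from an overlapping reading frame p16Ink4a, which inhibits the D-type cyclin kinases. High MYC activity is a classic inducer of Arf, and tumours driven by MYC often lose either Arf or p53. Active p53 turns on genes for arrest (Cdkn1a), feedback (Mdm2, Ccng1), growth control (Phlda3, Sesn2), stress and death signalling (Trp53inp1) and repair (Gadd45a). p53 is controlled largely at the level of its protein, which mRNA counts do not measure.

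Promoter sequence is shown for Cdkn1a, whose level separated all 4 models, and for both starts of Cdkn2a, whose products the 3′ tags could not separate. The stretches come from RefSeq on GRCm38.p6 and are printed 5′ to 3′ on the strand of the gene. In the Cdkn1a stretch, capitals mark 2 exact matches to the pattern of the p53 half-site, the decamer bound by a pair of p53 molecules.
Cdkn1a, first start, chr17:29090729-29090975, plus strand: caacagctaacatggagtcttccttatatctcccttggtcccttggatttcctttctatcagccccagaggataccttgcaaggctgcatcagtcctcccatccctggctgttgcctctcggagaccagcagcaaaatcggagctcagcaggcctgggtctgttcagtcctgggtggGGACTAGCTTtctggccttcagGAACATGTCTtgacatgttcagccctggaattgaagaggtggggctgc
Cdkn2a, Arf start, chr4:89294654-89294869, minus strand: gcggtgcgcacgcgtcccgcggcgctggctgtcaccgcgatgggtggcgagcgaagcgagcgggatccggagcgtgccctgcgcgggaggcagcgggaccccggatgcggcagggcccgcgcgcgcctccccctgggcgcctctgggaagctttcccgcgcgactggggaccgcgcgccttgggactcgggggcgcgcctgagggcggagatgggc
Cdkn2a, Ink4a start, chr4:89282193-89282442, minus strand: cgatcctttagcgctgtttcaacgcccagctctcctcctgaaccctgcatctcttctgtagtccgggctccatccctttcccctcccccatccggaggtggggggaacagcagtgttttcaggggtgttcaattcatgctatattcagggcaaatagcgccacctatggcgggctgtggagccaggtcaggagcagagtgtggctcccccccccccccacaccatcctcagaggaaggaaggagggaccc
RefSeq entries were found for 9 of the 10 members, with 12 windows of 250 bases before a start, and both strands were searched. Trp53inp1 had no entry. A p53 half-site occurred in 5 of the 12 windows, those of Trp53, Cdkn1a, Mdm2, Ccng1 and Gadd45a, against 7.13% of 32851 windows of all genes. The p53 response element, searched as a pair of exactly matching half-sites with at most a short spacer, occurred in 1 of the 12 windows. That window was of Cdkn1a, against 0.0639% of all windows. Its first base lay at -73 from the first RefSeq start of Cdkn1a, and it holds the marked half-sites. The window before the second Cdkn1a start (chr17:29093519-29093768) held 0 half-sites and 0 response elements. The E-box CACGTG, a motif that MYC binds, occurred in 0 of the 12 windows, against 6.02% of all windows. A match is a description of these letters and says nothing of binding in the tumours.

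Library totals ran from 2.58 M counts in an N1ICD library to 15.19 M in an S100b-cell library, and levels are given as CPM over TMM-scaled totals. Mitochondrially encoded genes took 5.18% to 6.00% of counts in the constitutive libraries, 14.7% to 18.5% in the S100b-cell libraries and 23.2% to 27.6% in the N1ICD libraries. Column names in the labels followed 3 styles, shared by the constitutive groups and separate for each of the others. The library set and the tumour model therefore cannot be told apart, except between MYC-Gfi1 and MYC-Otx2. Whether libraries of 1 group come from different animals is not in the labels, and p-values here measure the spread between libraries, which may be technical. Of the tissue markers, Atoh1, which encodes Math1, had 0 counts in 8 of 11 libraries, the N1ICD libraries among them, and 1 to 8 counts in the others. The summed level of 10 granule progenitor markers was 11.9 to 176 CPM in the N1ICD libraries, 22.9 to 296 in the S100b-cell libraries, 189 to 404 in the MYC-Otx2 libraries and 127 and 2185.5 CPM in the MYC-Gfi1 libraries. The MYC-Gfi1 libraries stood apart from each other. Replicate 1 had 4806 CPM of B-lineage markers and 134 of mature granule neuron markers, and replicate 2 had 819 and 3874 CPM. Because the samples were bulk tissue, fewer cells of a type and less RNA per cell cannot be told apart.

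**Figure D1:**
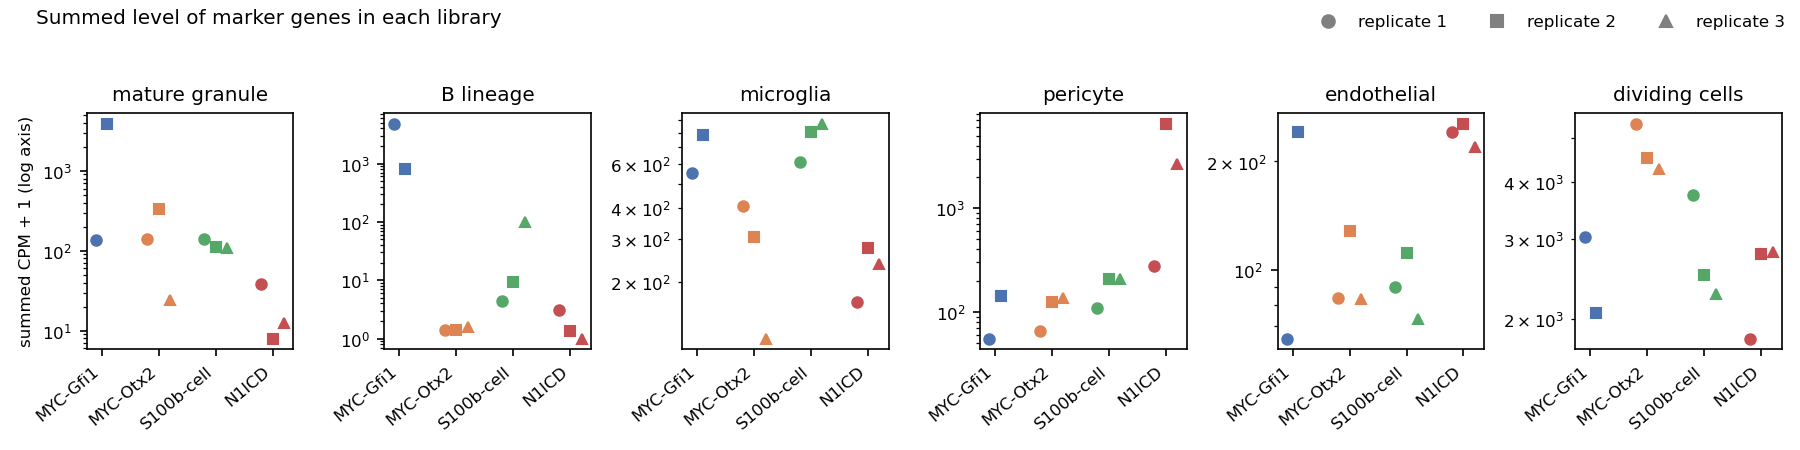
Summed CPM of marker lists, plus 1, on log axes, for each library. Points are libraries, coloured by model and shaped by replicate number. The MYC-Gfi1 libraries are 134 and 3874 CPM for mature granule neuron markers, and the N1ICD libraries run from 275 to 6492 CPM for pericyte markers.

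Positions below are on mm10. Trp53 mRNA (chr11:69580359-69591873) was present in every library, and no comparison called it. It had 75.1 and 16.6 CPM in the MYC-Gfi1 libraries, 42.8, 73.4 and 98.5 in the MYC-Otx2 libraries, 63.4, 64.0 and 43.2 in the S100b-cell libraries and 27.0, 37.0 and 24.3 in the N1ICD libraries. The 3 N1ICD libraries lay below all MYC-Otx2 and all S100b-cell libraries, and between the MYC-Gfi1 libraries. The N1ICD against MYC-Otx2 difference was -1.28 ± 0.51 on the log2 scale (edgeR, SE, adjusted p = 0.0942), and it was called when those groups were fitted alone (-1.26, adjusted p = 0.0385). The MYC-Otx2 against MYC-Gfi1 difference was 0.64 ± 0.56 (adjusted p = 0.474), and it was 2.13 without MYC-Gfi1 replicate 1 (adjusted p = 0.0345) and -0.06 without replicate 2.

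Cdkn2a, the Arf and p16Ink4a gene (chr4:89274471-89294653), was uneven within groups, above all among the N1ICD tumours. It had 5.48 and 0.871 CPM in the MYC-Gfi1 libraries, 4.94, 5.98 and 6.93 in the MYC-Otx2 libraries, 1.23, 7.81 and 8.52 in the S100b-cell libraries and 0.429, 32.4 and 39.0 in the N1ICD libraries. The highest and the lowest level of all 11 libraries therefore both came from N1ICD tumours. The lowest was 1 count, with an exact 95% Poisson interval of 0.0109 to 2.39 CPM, against 93 and 96 counts in the other N1ICD libraries, so it lies beyond counting error, which is all that such an interval covers. No comparison called Cdkn2a. The N1ICD mean was 23.9 ± 20.6 CPM (SD, n = 3) and the MYC-Gfi1 mean 3.18 ± 3.26 (SD, n = 2), a difference of 2.90 ± 1.40 on the log2 scale (edgeR, SE, adjusted p = 0.195). Leaving out each library in turn moved that difference between 2.12 and 4.77. The summed level of 7 pericyte markers, all of them detected in each N1ICD library, was 275 CPM in the N1ICD library with low Cdkn2a and 6492 and 2660 CPM in the other N1ICD libraries, and its part in the difference was not tested. The annotated Arf and p16Ink4a transcripts end 70 bases apart, so the 3′ counts give their sum.

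By likeness of pattern, the 3 tested genes nearest to Cdkn2a over the 11 libraries were 2610018G03Rik, Fabp4 and Gm24130. Likeness was the root mean square distance between centred log2 CPM values, and it was 0.631, 0.743 and 0.933, against a median of 1.92 over all other genes and an SD of 1.83 for Cdkn2a itself. Each of the 3 was at 0 in the N1ICD library with 1 Cdkn2a count. They were picked for likeness over these same libraries, so low values there follow in part from the choice. Fabp4, a fatty acid binding protein of fat cells, macrophages and vessels, had 3.62 ± 3.88 CPM (SD, n = 3) in the N1ICD tumours, and Gm24130 had 4.33 ± 3.84. The nearest gene, 2610018G03Rik, was nearer the level of Cdkn2a, with 0, 27.5 and 24.8 CPM in the N1ICD libraries.

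The p53 inhibitors differed from each other. Mdm2 (chr10:117688875-117710758) had overlapping levels in all models, with 131 and 86.9 CPM in the MYC-Gfi1 libraries, 108, 117 and 95.6 in the MYC-Otx2 libraries, 163, 101 and 106 in the S100b-cell libraries and 66.5, 90.3 and 111 in the N1ICD libraries. All 4 groups overlapped, and the widest of its 6 differences, N1ICD against S100b-cell, was -0.47 ± 0.27 on the log2 scale (edgeR, SE, adjusted p = 0.392).

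Mdm4 (chr1:132959484-133030561) was graded. It had 17.6 and 11.9 CPM in the MYC-Gfi1 libraries, 12.6, 13.3 and 15.9 in the MYC-Otx2 libraries, 34.8, 25.4 and 29.7 in the S100b-cell libraries and 56.2, 50.2 and 44.6 in the N1ICD libraries. Every N1ICD library lay above every S100b-cell library, and these lay above all 5 constitutive libraries, which overlapped. By edgeR's quasi-likelihood test Mdm4 was higher in N1ICD than in MYC-Gfi1 tumours by 1.77 ± 0.31 on the log2 scale (SE, adjusted p = 0.0102) and than in MYC-Otx2 tumours by 1.85 ± 0.27 (adjusted p = 0.00208). It was higher in S100b-cell than in MYC-Otx2 tumours by 1.10 ± 0.26 (adjusted p = 0.0194). The last call was lost without MYC-Otx2 replicate 1 or 2 (adjusted p = 0.0664 and 0.0673) or S100b-cell replicate 1 or 3 (0.0789 and 0.0573). The N1ICD against MYC-Gfi1 call was lost when those groups were fitted alone (adjusted p = 0.115). The S100b-cell against MYC-Gfi1 difference of 1.02 ± 0.30 missed the threshold (adjusted p = 0.073) and was 1.36 without MYC-Gfi1 replicate 1 (adjusted p = 0.0372). N1ICD against S100b-cell was 0.75 ± 0.26 (adjusted p = 0.164). The GENCODE annotation places Gm29257 on the other strand within Mdm4, and no gene of that name is among those counted. The annotation and strand setting of the counting are not given, so reads of the pair cannot be told apart.

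**Figure D2:**
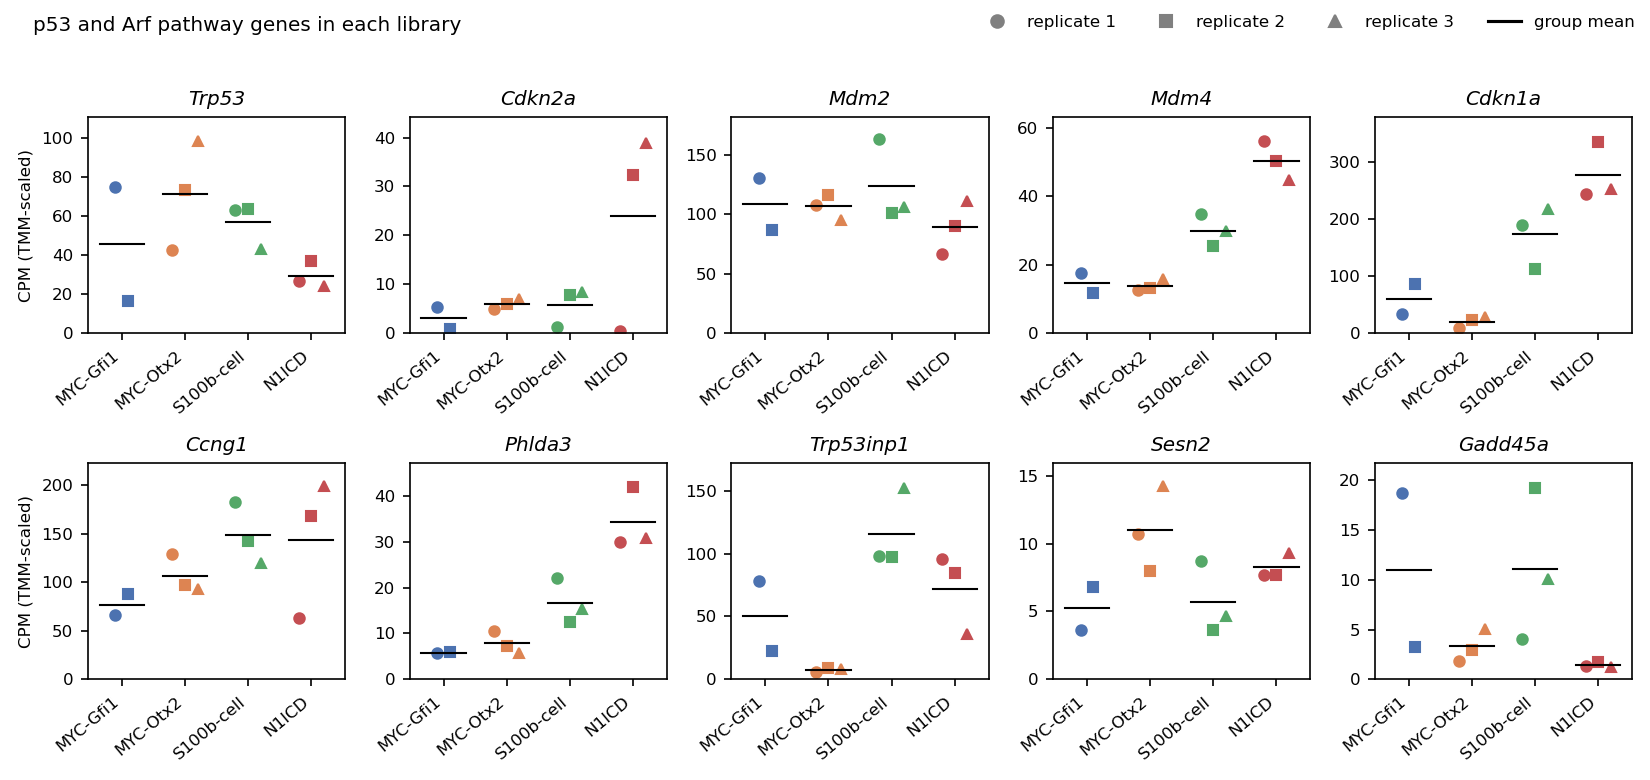
Level of the 10 genes in each library, in CPM over TMM-scaled totals on linear axes that start at 0. Points are libraries, coloured by model and shaped by replicate number, and bars are group means. Cdkn1a, Mdm4 and Phlda3 are higher in all N1ICD and S100b-cell libraries than in any constitutive library, and Cdkn2a spans 0.429 to 39.0 CPM within the N1ICD tumours.

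Cdkn1a, which encodes p21, the inhibitor of cyclin-dependent kinases that carries out p53-dependent arrest, separated all 4 models (chr17:29090976-29100727). It had 33.3 and 86.4 CPM in the MYC-Gfi1 libraries, 9.75, 24.0 and 27.9 in the MYC-Otx2 libraries, 189, 113 and 217 in the S100b-cell libraries and 244, 333 and 252 in the N1ICD libraries. No library of one model overlapped another, and the order from high to low was N1ICD, S100b-cell, MYC-Gfi1 and MYC-Otx2, with means 13.4-fold apart from first to last. Pairs of groups without overlap were common, at 26.1% to 50.4% of genes tested over the 6 comparisons. Separation of all 4 models was not counted over all genes. By edgeR's quasi-likelihood test Cdkn1a was higher in N1ICD than in MYC-Otx2 tumours by 3.75 ± 0.49 on the log2 scale (SE, adjusted p = 0.00154) and in S100b-cell than in MYC-Otx2 tumours by 3.07 ± 0.48 (adjusted p = 0.00382). Both calls held in every alternative fit. N1ICD exceeded MYC-Gfi1 by 2.21 ± 0.54 (adjusted p = 0.0297). That call was lost without MYC-Gfi1 replicate 1 (1.68, adjusted p = 0.0954), without N1ICD replicate 2 (2.05, 0.0686) or 3 (2.27, 0.0578), and when those groups were fitted alone (adjusted p = 0.113). The differences between neighbours in the order missed the threshold: N1ICD against S100b-cell was 0.68 ± 0.44 (adjusted p = 0.449), S100b-cell against MYC-Gfi1 1.53 ± 0.52 (adjusted p = 0.112) and MYC-Otx2 against MYC-Gfi1 -1.54 ± 0.49 (adjusted p = 0.0838). The last was -2.05 without MYC-Gfi1 replicate 1 (adjusted p = 0.0325) and -0.69 without MYC-Gfi1 replicate 2 (adjusted p = 0.496), and DESeq2 called it (-1.59, adjusted p = 0.0255). The summed level of 16 markers of dividing cells was highest where Cdkn1a was lowest, at 4269 to 5367 CPM in the MYC-Otx2 libraries, against 1815 to 3751 CPM in the other 8, and its part was not tested. Single markers went both ways. Of the 16, N1ICD against MYC-Otx2 called 2 higher and 4 lower, where 21.8% of all genes tested were called. S100b-cell against MYC-Otx2 called 2 higher and 1 lower, where 17.9% were called. AC167363.2 lies on the other strand within Cdkn1a and is likewise not among the genes counted, with the same uncertainty as for Mdm4.

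The 3 tested genes most like Cdkn1a in pattern were Exoc6, BC030499 and AC161493.1, at distances of 0.435, 0.513 and 0.568 against a median of 1.79 over all other genes and an SD of 1.71 for Cdkn1a. Exoc6, a subunit of the exocyst that tethers vesicles, had 7.65 ± 2.44 CPM in N1ICD, 6.21 ± 0.562 in S100b-cell and 0.326 ± 0.383 in MYC-Otx2 tumours (SD, n = 3 each), and 1.18 ± 1.01 in MYC-Gfi1 tumours (SD, n = 2). AC161493.1 had 16.4 ± 3.18 CPM in N1ICD and 11.7 ± 3.58 in S100b-cell tumours, 2.23 ± 1.94 in MYC-Otx2 tumours (SD, n = 3 each) and 3.91 ± 1.25 in MYC-Gfi1 tumours (SD, n = 2). The likeness was chosen from the values themselves.

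Ccng1, cyclin G1, a p53 target that takes part in the feedback through Mdm2, was spread more evenly (chr11:40748552-40755311). It had 66.4 and 87.4 CPM in the MYC-Gfi1 libraries, 129, 97.2 and 92.6 in the MYC-Otx2 libraries, 182, 142 and 120 in the S100b-cell libraries and 63.0, 168 and 199 in the N1ICD libraries. N1ICD replicate 1, the library with 1 Cdkn2a count, was the lowest of all 11. No comparison called Ccng1. N1ICD against MYC-Gfi1 was 0.90 ± 0.43 on the log2 scale (edgeR, SE, adjusted p = 0.188), and without N1ICD replicate 1 it was 1.25 (adjusted p = 0.0253).

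Phlda3, a p53 target whose product restrains Akt signalling, was also highest in N1ICD and next in S100b-cell tumours (chr1:135766119-135769136). It had 5.71 and 5.96 CPM in the MYC-Gfi1 libraries, 10.5, 7.35 and 5.66 in the MYC-Otx2 libraries, 22.0, 12.6 and 15.3 in the S100b-cell libraries and 30.0, 41.8 and 30.8 in the N1ICD libraries. The N1ICD libraries lay above the S100b-cell libraries, and these above all constitutive libraries. By edgeR's test Phlda3 was higher in N1ICD than in MYC-Gfi1 tumours by 2.55 ± 0.42 on the log2 scale (SE, adjusted p = 0.00846) and than in MYC-Otx2 tumours by 2.13 ± 0.35 (adjusted p = 0.00387). The first call was lost when the compared groups were fitted alone (adjusted p = 0.0989), and the second held in every alternative fit. S100b-cell against MYC-Otx2 was 1.09 ± 0.34 (adjusted p = 0.0516), with adjusted p = 0.0167 by DESeq2 and 0.0471 when fitted alone. S100b-cell against MYC-Gfi1 was 1.51 ± 0.40 (adjusted p = 0.0587), and N1ICD against S100b-cell was 1.04 ± 0.34 (adjusted p = 0.146).

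Trp53inp1, a p53 target that supports p53-dependent death and autophagy, was the member with the widest gap between group means, 15.4-fold (chr4:11156431-11174379). It had 78.5 and 22.7 CPM in the MYC-Gfi1 libraries, 5.79, 8.97 and 7.86 in the MYC-Otx2 libraries, 98.1, 97.5 and 152 in the S100b-cell libraries and 96.0, 84.7 and 35.7 in the N1ICD libraries. The MYC-Otx2 tumours were set apart: each of their libraries lay below each of the other 8. By edgeR's test Trp53inp1 was higher than in MYC-Otx2 tumours by 3.94 ± 0.54 on the log2 scale in S100b-cell tumours (SE, adjusted p = 0.00222) and by 3.25 ± 0.52 in N1ICD tumours (adjusted p = 0.00343), and both calls held in every alternative fit. It was also called between the constitutive models, lower in MYC-Otx2 than in MYC-Gfi1 tumours (-2.74 ± 0.54, adjusted p = 0.0263), where the libraries share a naming style. That call was lost without MYC-Gfi1 replicate 1 (-1.56, adjusted p = 0.0638), without MYC-Otx2 replicate 1, 2 or 3 (adjusted p = 0.0958, 0.0627 and 0.0898) and when the groups were fitted alone (0.0686).

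Sesn2, sestrin 2, which restrains the growth kinase mTORC1, stayed low in all models (chr4:132492032-132510501). It had 3.61 and 6.83 CPM in the MYC-Gfi1 libraries, 10.7, 7.97 and 14.2 in the MYC-Otx2 libraries, 8.73, 3.67 and 4.69 in the S100b-cell libraries and 7.72, 7.67 and 9.33 in the N1ICD libraries. No comparison called it, and the smallest adjusted p of its 6 edgeR tests was 0.176 (S100b-cell against MYC-Otx2, -0.94 ± 0.46, SE). Gm12981 overlaps it on the same strand, with 0 to 13 counts a library.

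Gadd45a, a stress sensor that binds the replication clamp, was lowest in the N1ICD tumours (chr6:67035096-67037457). It had 18.8 and 3.20 CPM in the MYC-Gfi1 libraries, 1.84, 2.99 and 5.08 in the MYC-Otx2 libraries, 4.01, 19.2 and 10.1 in the S100b-cell libraries and 1.29, 1.74 and 1.22 in the N1ICD libraries. The N1ICD values rest on 3, 5 and 3 counts and lay below all 8 other libraries, but their exact 95% Poisson intervals, up to 3.76, 4.07 and 3.56 CPM, reach the MYC-Otx2 levels. Against S100b-cell the difference was -2.95 ± 0.84 on the log2 scale (edgeR, SE, adjusted p = 0.115; DESeq2 0.0193) and against MYC-Gfi1 -2.94 ± 0.89 (adjusted p = 0.0585; DESeq2 0.0159). The latter rested on the uneven MYC-Gfi1 libraries: it was -1.15 without replicate 1 (adjusted p = 0.421) and -3.71 without replicate 2 (adjusted p = 0.0391). E230016M11Rik overlaps Gadd45a on the other strand and had 1 to 39 counts a library.

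**Figure D3:**
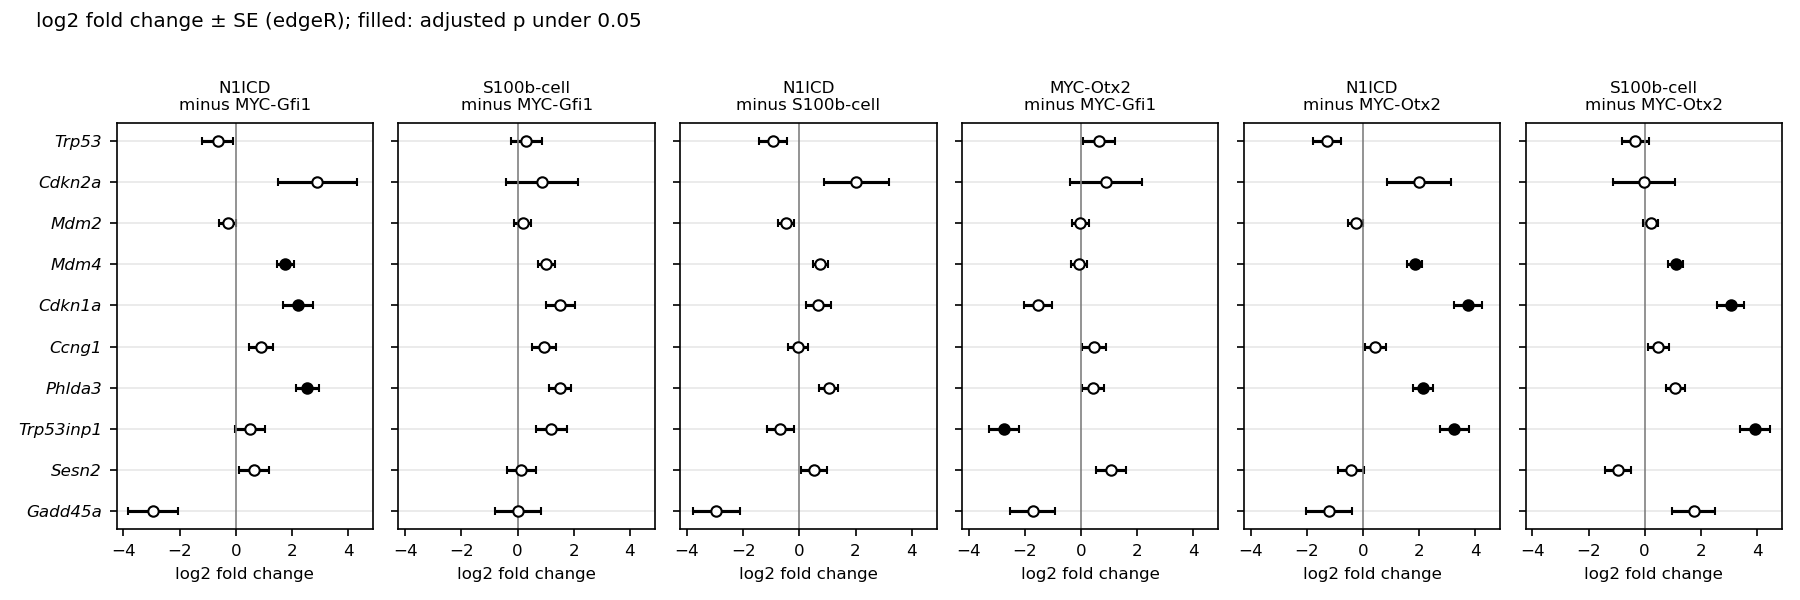
Log2 fold change of the 10 genes in the 6 comparisons, with bars of 1 SE from the edgeR fit over all 11 libraries. Filled points passed an adjusted p of 0.05. The 11 filled points fall in 4 comparisons, and the comparisons share groups, so they are not independent.

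Read by comparison, most member calls came where a cell-restricted model met MYC-Otx2 or N1ICD met MYC-Gfi1. N1ICD against MYC-Otx2 called 4 of 10 members, all higher (Cdkn1a, Mdm4, Phlda3 and Trp53inp1), where 21.8% of all genes tested were called in either direction. The members' median log2 fold change was 1.14, against 0.14 over all genes. S100b-cell against MYC-Otx2 called 3 of 10, all higher (Cdkn1a, Mdm4 and Trp53inp1), where 17.9% of genes were called. The medians there were 0.78 and 0.17. N1ICD against MYC-Gfi1 called 3 of 10, all higher (Cdkn1a, Mdm4 and Phlda3), where 11.5% of genes were called, with medians of 0.78 and -0.01. When the MYC-Gfi1 and N1ICD libraries were fitted alone, 0 of 10 members were called, as were 15 genes of the whole table. In each of the 3 comparisons the share of members called was above the share of all genes. The 10 members were chosen for their pathway with earlier results of these data known, so this is a count and not a test.

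The other comparisons called few members. MYC-Otx2 against MYC-Gfi1 called 1 of 10, Trp53inp1, where 5.46% of genes were called, and the medians were 0.20 and -0.14. S100b-cell against MYC-Gfi1 called 0 of 10 by edgeR, where 4.35% of genes were called. At an unadjusted p under 0.05 edgeR held 3 members there (Cdkn1a, Mdm4 and Phlda3), and 23.7% of all genes. DESeq2 called the same 3 (adjusted p = 0.0491, 0.0169 and 0.00744). All 10 members had positive differences, with a median of 0.91 against 0.01 over all genes, but that of Gadd45a was 0.01 and turned to -0.07 by DESeq2. N1ICD against S100b-cell, the comparison of the cell-restricted models, called 0 of 10 by edgeR, where 1.21% of genes were called. At an unadjusted p under 0.05 edgeR held 3 members (Mdm4, Phlda3 and Gadd45a), and 18.7% of all genes. DESeq2 called those 3: Mdm4 (0.81, adjusted p = 0.0287), Phlda3 (1.10, 0.0279) and Gadd45a (-2.90, 0.0193).

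Libraries that did not overlap were common across the table. They were found for 6 of 10 members in N1ICD against MYC-Otx2 and 41.5% of all genes, for 6 in N1ICD against S100b-cell and 26.1%, and for 5 in N1ICD against MYC-Gfi1 and 38.0%. They were found for 5 in S100b-cell against MYC-Gfi1 and 41.3%, for 4 in S100b-cell against MYC-Otx2 and 50.4%, and for 4 in MYC-Otx2 against MYC-Gfi1 and 43.6%. Across both kinds of model at once, 3 members (Cdkn1a, Mdm4 and Phlda3) lay higher in all 6 cell-restricted libraries than in all 5 constitutive libraries, as did 5.96% of genes tested, and 0 members lay lower, as did 4.05%. That split is also the split of library naming styles and of mitochondrial share, and these cannot be told apart. With the mitochondrially encoded genes left out of the table, each of the 11 member calls was kept.

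Other genes of the pathway did not all move together, though most differences of the damage signalling and Mdm2-binding lists shared a direction in some comparisons. Counts of called genes in the 7 lists below stand against these shares of all genes tested, called in either direction. They were 21.8% in N1ICD against MYC-Otx2, 17.9% in S100b-cell against MYC-Otx2 and 11.5% in N1ICD against MYC-Gfi1. They were 5.46% in MYC-Otx2 against MYC-Gfi1, 4.35% in S100b-cell against MYC-Gfi1 and 1.21% in N1ICD against S100b-cell. No list was tested as a set. The lists share some genes, so their counts are not separate: Sesn1 and Trp53inp2 are among both the arrest targets and the relatives of the members. Rps27l is among both the arrest targets and the proteins that bind Mdm2. Of 18 tested p53 targets for arrest, metabolism and repair, N1ICD against MYC-Otx2 called 3 higher and 1 lower, S100b-cell against MYC-Otx2 4 higher and 2 lower, MYC-Otx2 against MYC-Gfi1 1 higher and 1 lower, and N1ICD against MYC-Gfi1 0 higher and 1 lower. The remaining comparisons called 0 by edgeR. Tigar, a fructose bisphosphatase that lowers glycolysis, was highest in the MYC-Otx2 tumours, where Cdkn1a was lowest. It had 188, 126 and 158 CPM in the MYC-Otx2 libraries and 9.56 to 45.5 CPM in the other 8, a difference of -2.60 ± 0.48 for N1ICD against MYC-Otx2 on the log2 scale (edgeR, SE, adjusted p = 0.00625), called in 12 of 12 alternative fits. Ephx1, an epoxide hydrolase, rose in N1ICD against MYC-Otx2 tumours by 4.33 ± 1.00 (adjusted p = 0.0156, called in 11 of 12 alternative fits, but not without MYC-Otx2 replicate 2, adjusted p = 0.0601), from 3.11, 0.747 and 0 CPM to 24.4, 33.8 and 18.3 CPM. Sesn1, a relative of Sesn2, had 9.04, 6.85 and 4.04 CPM in the MYC-Otx2 libraries against 36.3 and 28.3 in the MYC-Gfi1 libraries (-2.28 ± 0.55, adjusted p = 0.0441). That call was kept in 4 of 11 alternative fits. Leaving out any single library of the 5 lost it, as did fitting those groups alone. Rps27l, the most abundant of the list, was called in no comparison and had 141 to 405 CPM.

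Of 12 p53 targets that promote cell death, 2 rose in N1ICD against MYC-Gfi1 tumours, 1 fell in N1ICD against S100b-cell tumours and 1 rose in S100b-cell against MYC-Otx2 tumours. The other 3 comparisons called 0 by edgeR. Bbc3, which encodes the death activator Puma, peaked in the S100b-cell tumours at 327, 260 and 303 CPM, against 58.2 to 166 CPM in all other libraries. Its S100b-cell against MYC-Otx2 difference was 1.58 ± 0.33 on the log2 scale (edgeR, SE, adjusted p = 0.0113), lost only without MYC-Otx2 replicate 2 (0.0502). Its N1ICD against S100b-cell difference was -1.62 ± 0.33 (adjusted p = 0.047), a call kept in 4 of 12 alternative fits. That call was lost without any single S100b-cell library and without N1ICD replicate 2 or 3. RLE scaling, removal of the mitochondrially encoded genes and fitting those groups alone lost it too. Bbc3 and Cdkn1a, both targets of p53, therefore had different orders of group means. Perp, a junction protein that p53 induces in dying cells, had 208, 1144 and 972 CPM in the N1ICD libraries and 50.2 and 3.78 CPM in the MYC-Gfi1 libraries (4.84 ± 1.35, adjusted p = 0.0468). That call was kept in 4 of 11 alternative fits and lost without MYC-Gfi1 replicate 2 or N1ICD replicate 2 or 3. No filter, removal of the mitochondrially encoded genes and fitting those groups alone lost it too. Perp in the N1ICD libraries took the same order as the pericyte marker sums in having replicate 1 lowest, and the part of pericytes was not tested. Eda2r, a receptor of the tumour necrosis factor family, rose in N1ICD against MYC-Gfi1 tumours by 2.19 ± 0.59 (adjusted p = 0.0414, kept in 5 of 11 alternative fits). That call was lost without either MYC-Gfi1 library, without N1ICD replicate 2 or 3 and when those groups were fitted alone.

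The kinases and sensors that signal DNA damage to p53 gave the largest count of the 7 pathway lists in N1ICD against MYC-Gfi1 tumours. There 7 of 16 rose and 0 fell, where 11.5% of all genes tested were called. The median log2 fold change was 1.32, against -0.01 over all genes. The list was also higher than in MYC-Gfi1 tumours in the other models: 15 of 16 differences were positive in each of the 3 comparisons, with medians of 1.13 for S100b-cell and 0.92 for MYC-Otx2, while the N1ICD against MYC-Otx2 median was 0.20. Its summed level was 583 and 337 CPM in the MYC-Gfi1 libraries and 756 to 1049 CPM in the other 9. When the N1ICD and MYC-Gfi1 libraries were fitted alone, 0 of the 16 were called. S100b-cell against MYC-Gfi1 called 3 higher, N1ICD against MYC-Otx2 4 higher and 1 lower, S100b-cell against MYC-Otx2 3 higher, MYC-Otx2 against MYC-Gfi1 2 higher and N1ICD against S100b-cell 1 higher. Rad50 and Nbn, partners in the complex that recognises broken DNA ends, split the libraries like Mdm4. Rad50 had 165, 152 and 143 CPM in the N1ICD libraries, 135, 115 and 133 in the S100b-cell libraries and 30.8 to 43.8 in the 5 constitutive libraries. Its rise in N1ICD against MYC-Otx2 tumours was 2.21 ± 0.20 (edgeR, SE, adjusted p = 0.000432) and Nbn's 1.76 ± 0.32 (adjusted p = 0.0058), each called in 12 of 12 alternative fits. Rad50 thus follows the same split of library sets as Mdm4, Phlda3 and Cdkn1a, and model and library set cannot be told apart. Atrip, the partner of the kinase Atr, had 15.9, 23.4 and 22.3 CPM in the N1ICD libraries and 1.16 to 8.09 CPM in the other 8, and rose by 3.69 ± 0.53 against MYC-Gfi1 tumours (adjusted p = 0.00571, called in 10 of 11 alternative fits, the exception being the compared groups alone). Atm, the kinase that phosphorylates p53 after breaks, rose there by 1.09 ± 0.28 (adjusted p = 0.0342, kept in 5 of 11 alternative fits). That call was lost without either MYC-Gfi1 library and without N1ICD replicate 1 or 2. No filter and fitting those groups alone lost it too.

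**Figure D4:**
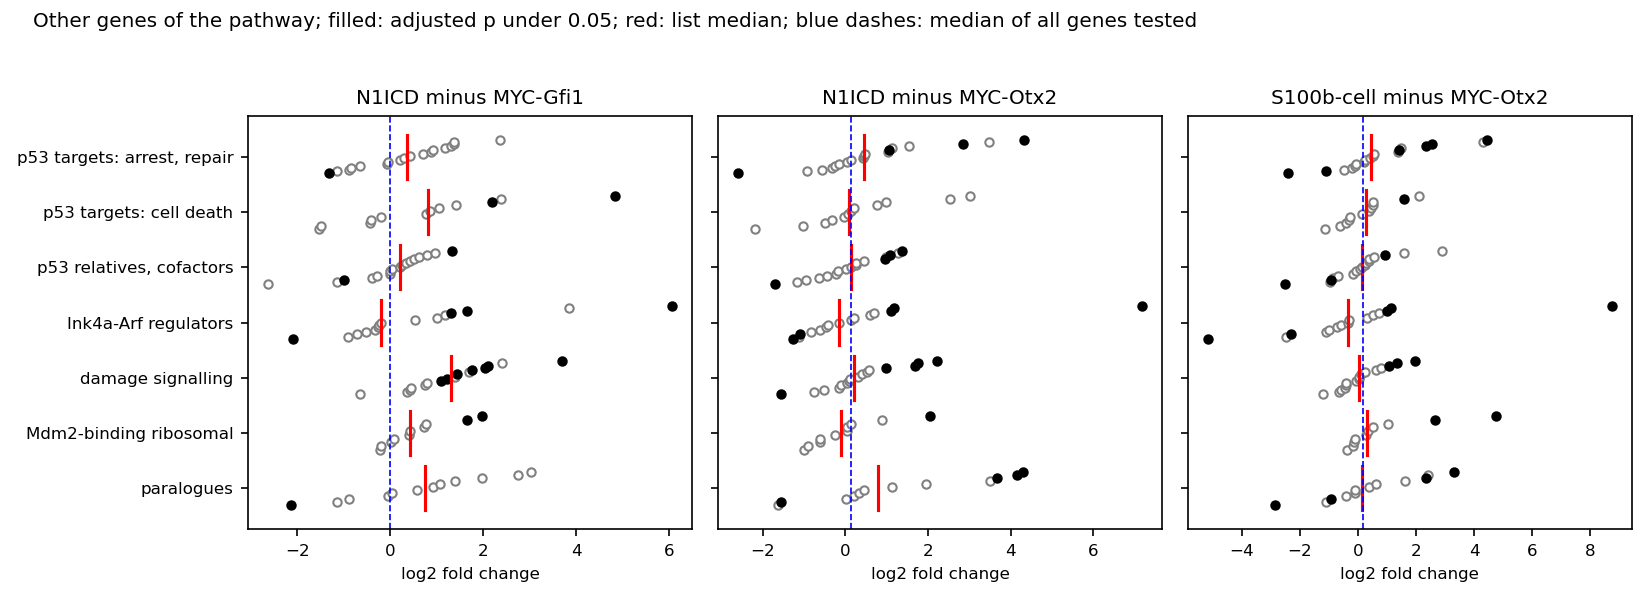
Log2 fold change of the tested genes of 7 pathway lists in 3 comparisons. Each point is a gene, filled where the adjusted p from edgeR was under 0.05. Red bars are list medians and dashed blue lines the medians of all genes tested. The farthest point on the right among Ink4a-Arf regulators in both comparisons with MYC-Otx2 is Twist1, which had 0 counts in the MYC-Otx2 libraries, so its place rests on the prior count.

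Among 17 relatives and cofactors of p53, N1ICD against MYC-Otx2 called 3 higher and 1 lower, S100b-cell against MYC-Otx2 1 higher and 2 lower, N1ICD against MYC-Gfi1 1 higher and 1 lower, and the others 0 by edgeR. Usp7, the deubiquitinase that protects Mdm2 and p53, had 266, 326 and 280 CPM in the N1ICD libraries and 107 to 236 CPM in all others. It rose by 0.95 ± 0.20 on the log2 scale against MYC-Otx2 tumours (edgeR, SE, adjusted p = 0.00916), called in 12 of 12 alternative fits. Sirt1, a deacetylase that dampens p53, fell in the same comparison (-1.70 ± 0.24 on the log2 scale, SE, adjusted p = 0.00191), also in 12 of 12, from 107, 97.5 and 89.3 CPM to 24.0, 31.4 and 34.9 CPM.

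Of 15 tested regulators of the Ink4a-Arf locus, N1ICD against MYC-Gfi1 called 3 higher and 1 lower, N1ICD against MYC-Otx2 3 higher and 2 lower, S100b-cell against MYC-Otx2 3 higher and 2 lower, MYC-Otx2 against MYC-Gfi1 2 higher, S100b-cell against MYC-Gfi1 1 higher and N1ICD against S100b-cell 0 by edgeR. Ezh2, the Polycomb methyltransferase that silences the locus, had 286, 185 and 235 CPM in the N1ICD libraries, 286, 179 and 192 in the S100b-cell libraries and 72.3 to 121 in the 5 constitutive libraries. Its rise in N1ICD against MYC-Otx2 tumours was 1.11 ± 0.24 on the log2 scale (edgeR, SE, adjusted p = 0.012), called in 12 of 12 alternative fits, and against MYC-Gfi1 tumours 1.64 ± 0.28 (adjusted p = 0.00972), called in 10 of 11. Ezh2 was high in N1ICD replicate 1, with 1 Cdkn2a count, and in replicates 2 and 3, with the highest Cdkn2a levels. The part of Ezh2 in the Cdkn2a levels was not tested. Tbx2, a repressor of Arf, had 0.857, 73.2 and 32.1 CPM in the N1ICD libraries, low in the same library as Cdkn2a, and 22.3, 38.9 and 31.2 CPM in the MYC-Otx2 libraries against 0.436 to 1.42 CPM in the other 5. Its part in the Cdkn2a levels was not tested either. Twist1 had 0 counts in the MYC-Otx2 libraries and 6.52 ± 1.39 CPM in the S100b-cell tumours (SD, n = 3), and no fold is given for it, though it is 1 of the genes counted as higher in both comparisons with MYC-Otx2. Both Twist1 calls were lost on leaving out any single library of the compared groups. Npm1, the nucleolar protein that holds Arf and the most abundant of the list, was called in no comparison.

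Of 10 nucleolar and ribosomal proteins that bind Mdm2, Rps14 and Rpl26 carried most calls of the main edgeR fit. Counts were 2 of 10 higher in S100b-cell against MYC-Otx2, S100b-cell against MYC-Gfi1 and N1ICD against MYC-Gfi1, 1 higher in N1ICD against MYC-Otx2, 1 lower in N1ICD against S100b-cell and 0 in MYC-Otx2 against MYC-Gfi1 by edgeR. Differences were positive for 10 of 10 in S100b-cell against MYC-Gfi1 (median 0.86, 0.01 over all genes) and 9 in MYC-Otx2 against MYC-Gfi1 (0.69, -0.14). They were positive for 0 in N1ICD against S100b-cell (-0.52, -0.06), 8 in N1ICD against MYC-Gfi1, 5 in N1ICD against MYC-Otx2 and 6 in S100b-cell against MYC-Otx2. Over all fits, calls ran from 0 to 8 in S100b-cell against MYC-Gfi1 and 0 to 7 in MYC-Otx2 against MYC-Gfi1. Rpl26 had 369, 472 and 569 CPM in the S100b-cell libraries and 9.09 to 21.6 CPM in the other 8, 4.76 ± 0.28 higher than in MYC-Otx2 tumours on the log2 scale (edgeR, SE, adjusted p = 4.1e-05). Reads of ribosomal protein genes can also fit processed pseudogenes, so the values of this list are uncertain. Among 12 relatives of the members (other sestrins, Gadd45 and Phlda genes and kinase inhibitors), N1ICD against MYC-Otx2 called 3 higher and 1 lower and S100b-cell against MYC-Otx2 2 higher and 2 lower, MYC-Otx2 against MYC-Gfi1 2 lower, both MYC-Gfi1 comparisons of the cell-restricted models 1 lower, and N1ICD against S100b-cell 1 higher. Gadd45b had 13.3, 23.7 and 34.9 CPM in the N1ICD libraries and 1.7, 0.623 and 1.27 in the MYC-Otx2 libraries (4.31 ± 0.55, adjusted p = 0.00138, called in 12 of 12 alternative fits), where the difference of Gadd45a was -1.21 ± 0.83 (adjusted p = 0.314). In the other comparisons with MYC-Otx2 tumours both were lower there: Gadd45b was 3.31 and Gadd45a 1.74 for S100b-cell against MYC-Otx2, and -3.25 and -1.73 for MYC-Otx2 against MYC-Gfi1, with Gadd45a called in neither. Cdkn2d, which encodes the Cdk4 inhibitor p19Ink4d and not Arf, had 7.29, 6.97 and 6.49 CPM in the N1ICD libraries and 19.0 to 32.9 CPM in the 5 constitutive libraries, and fell against MYC-Otx2 tumours (-1.56 ± 0.28 on the log2 scale, adjusted p = 0.00538, called in 12 of 12 alternative fits). Phlda1, a relative of Phlda3, had 50.2, 251 and 196 CPM in the N1ICD libraries and 6.50 to 37.9 CPM in the other 8, a rise of 4.17 ± 0.72 against MYC-Otx2 tumours (adjusted p = 0.00465, called in 12 of 12).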

How the data were processed

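Per the labels' protocols, TRIzol RNA of fresh-frozen tumours was sequenced with a QuantSeq 3′ forward kit and unique molecular identifiers. Per the submitters' processing notes, the tools were STAR 2.4.1d and HTSeq 0.6.1 with build mm10. The annotation, strand setting and collapse of identifiers were not stated. The authors deposited raw counts per gene symbol, with no normalization, 1 column per library, matched to the labels by name.

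With edgeR 4.0.16 (R 4.3.3), low counts were filtered by group (15228 of 38406 genes kept), totals were scaled by TMM, and a robust quasi-likelihood model was fitted to all 11 libraries in 4 groups, because MYC-Gfi1 has only 2. Its common biological variation was 0.562; residual degrees of freedom numbered 7 and prior ones 3.21 (median). P-values are two-sided, with Benjamini-Hochberg adjustment in each of 6 comparisons across all genes tested, and a gene is called under 0.05. The SE is the log2 fold change over the square root of F. Totals of 2.58 to 15.19 M counts limit low genes; Poisson intervals are exact, at 95%, and cover counting error alone. No library is a copy of another: within groups, chi-square over its degrees of freedom was 20.9 to 125.5.

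Alternatives were RLE scaling, no filter, DESeq2 1.42.0, a replicate block, the compared groups alone, mitochondrially encoded genes removed and each library left out. Scripts were tested on simulated data. The members, lists and rules were chosen with earlier results of these data known. The rule allowed naming, per list, up to 4 called genes of smallest p in each comparison and up to 2 uncalled genes of highest CPM, and the 3 genes nearest in pattern to Cdkn2a and Cdkn1a; not all are printed. All 204 list symbols were found, 4 by an older name. Gene positions are from GENCODE on mm10.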

Additional observations from a re-analysis of the deposited data

How the results depend on the processing

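Of 60 member changes 11 were called; of their 128 alternative values 112 kept the call and 128 the direction, and 15 of the 49 uncalled changes turned sign in some alternative. The cause of these shifts was not tested, other than the loss of samples by construction. Member counts moved by over 1.5 times in the following cases. They were 0 in N1ICD against MYC-Gfi1 and 0 in MYC-Otx2 against MYC-Gfi1 when the compared groups were fitted alone. By DESeq2 they were 3 in S100b-cell against MYC-Gfi1, 3 in N1ICD against S100b-cell and 2 in MYC-Otx2 against MYC-Gfi1. Leaving out each library gave 0 to 2 in S100b-cell against MYC-Gfi1 and 0 to 2 in MYC-Otx2 against MYC-Gfi1. Smaller moves were 2 to 4 in N1ICD against MYC-Gfi1 and 2 to 3 in S100b-cell against MYC-Otx2 on leaving out libraries, 4 in both by DESeq2, and, with the groups alone, 4 in the latter and 5 in N1ICD against MYC-Otx2 (Trp53 added). Counts over all genes were 3369, 2306, 1360, 2695 and 4327 by DESeq2 for N1ICD against MYC-Gfi1 (1754 by edgeR), S100b-cell against MYC-Gfi1 (663), N1ICD against S100b-cell (185), MYC-Otx2 against MYC-Gfi1 (832) and S100b-cell against MYC-Otx2 (2727). With the compared groups alone they were 15, 0, 83, 365 and 4622 in that order. Leaving out each library gave 797 to 2214, 12 to 1995, 9 to 262, 65 to 2170 and 1192 to 1750 in that order, and 1654 to 2775 for N1ICD against MYC-Otx2 (3315). Of the calls in S100b-cell against MYC-Gfi1, 42.1% were higher by DESeq2 and 53.8% by edgeR; in N1ICD against S100b-cell, 55.3% were higher with no filter and 66.5% with it.

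Gadd45a in S100b-cell against MYC-Gfi1 (0.01) was -0.07 under RLE scaling, -0.03 with no filter, -0.07 by DESeq2 and -0.01 with mitochondrially encoded genes removed, where Mdm2 in MYC-Otx2 against MYC-Gfi1 (-0.03) was 0.00. On leaving out each library, N1ICD against MYC-Gfi1 ran from -1.36 to 0.84 for Trp53, -0.56 to 0.05 for Mdm2 and -0.13 to 1.68 for Trp53inp1. S100b-cell against MYC-Gfi1 ran from -0.39 to 1.81 for Trp53, -0.11 to 0.53 for Mdm2, -0.34 to 0.66 for Sesn2 and -0.75 to 1.82 for Gadd45a. MYC-Otx2 against MYC-Gfi1 ran from -0.06 to 2.13 for Trp53, -0.29 to 0.31 for Mdm2, -0.33 to 0.25 for Mdm4 and -2.49 to 0.07 for Gadd45a. S100b-cell against MYC-Otx2 ran from -0.40 to 0.40 for Cdkn2a and -0.09 to 0.34 for Mdm2, and N1ICD against S100b-cell from -0.35 to 0.31 for Ccng1.

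Replicate numbers do not pair the samples: deviations of 15 same-numbered pairs correlated at -0.169 to 0.187. With a replicate block, member calls were 0 in MYC-Otx2 against MYC-Gfi1 (Trp53inp1 -2.58, adjusted p = 0.0773), Cdkn2a was -0.23 and Gadd45a -0.27 in S100b-cell against MYC-Gfi1, and all-gene counts were 789 (N1ICD against MYC-Gfi1), 102 (S100b-cell against MYC-Gfi1), 59 (N1ICD against S100b-cell) and 209 (MYC-Otx2 against MYC-Gfi1).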
